A study of Mus musculus with 88 samples.

Results

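Cadherins and protocadherins were followed in the nuclear RNA of mouse brain cells after a fear lesson and after a stress hormone. The members were the protein-coding genes of the counts tables whose symbol was Cdh followed by a number, or began with Pcdh, and 92 of 53749 gene rows qualified. They comprised 5 type I classical cadherins, 13 type II classical cadherins, 5 other cadherins, 12 unclustered protocadherins and 57 clustered protocadherins. The mice were wild-type C57BL/6J males, 4 months old. In the first experiment nuclei were sorted with an antibody to the neuronal protein NeuN, which gave NeuN+ (neuronal) and NeuN- (non-neuronal) nuclei, from the hippocampus (HIP, 4 libraries a group) and the medial prefrontal cortex (mPFC, 3 libraries a group). Groups were naive mice that stayed in the home cage, and mice taken 10 minutes (CFC10) or 30 minutes (CFC30) after contextual fear conditioning (CFC), in which a foot shock is paired with a place. In the second experiment corticosterone at 2 mg/kg or the same volume of saline was injected, and 30 minutes later hippocampal nuclei were sorted into NeuN+, GFAP+ (astrocyte), PU.1+ (microglia) and 3X- (negative for all 3 antibodies, oligodendrocyte-enriched) fractions, with 4 libraries a group. Since the naive mice stayed in the home cage, the new context and the shock cannot be told apart in the CFC groups. mPFC and HIP libraries were made with different versions of the library kit, so that region and kit cannot be told apart either.

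Cadherins are calcium-dependent adhesion proteins of the cell surface. Classical cadherins bind the same kind of cadherin on a neighbouring cell and hold the actin cytoskeleton through catenins, and in the brain they mark layers, nuclei and synaptic partners. Unclustered protocadherins adhere more weakly, and several of them bind the WAVE complex, which nucleates branched actin. Clustered protocadherins are transcribed from long arrays of alternative first exons under the control of the insulator protein CTCF and cohesin, and different neurons carry different combinations of them.

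Library totals were 10561897 to 18271372 counts in the hippocampal CFC experiment, 10577263 to 16392677 in the mPFC and 5935395 to 12758257 in the corticosterone experiment. Replicates 3 and 4 of HIP NeuN- naive nuclei held identical counts and were counted as 1 library, which left 73 of 74 libraries. Nothing in the labels says that replicates of a group came from separate animals, so that p-values measure the spread between libraries. The sorted fractions carried their markers: 3 neuronal genes summed to 357 to 506 CPM (counts scaled to a common library total) in 3X-, 633 to 942 CPM in PU.1+ and 855 to 1228 CPM in GFAP+ saline nuclei, against 4857 to 5018 CPM in NeuN+ saline nuclei, so that no glial fraction was free of neuronal RNA. The 5 microglial genes summed to 4337 to 4688 CPM in PU.1+ saline nuclei and 5 astrocyte genes to 9400 to 11719 CPM in GFAP+ saline nuclei. Fos, Arc, Npas4 and Egr1, which neuronal activity induces, all rose in NeuN+ nuclei of both regions at both times. In libraries made from many nuclei, fewer nuclei of a type and less RNA per nucleus cannot be told apart.

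The first question was which members these tables measure at all. All 35 cadherins and unclustered protocadherins had counts, whereas 56 of the 57 clustered protocadherins (98.2%) were listed at 0 in each of the 74 libraries. The exception was Pcdha1, the first gene of the alpha array, with 552 counts over all libraries and between 10 and 17 counts in each HIP NeuN+ naive library. In GRCm38 the arrays lie on chromosome 18, the alpha genes from 36930184 to 37187661 (14 genes), the beta genes from 37264938 to 37524479 (22 genes) and the gamma genes from 37661793 to 37841873 (21 genes). Each clustered gene other than Pcdha1 lies wholly over other genes of its own strand in the annotation, while Pcdha1 has 9021 bases before the next gene begins. From 36930184 to 37841873, the stretches between the arrays included, 0 of 13 other genes of the plus strand had counts. Of 15 genes of the minus strand 14 had counts.

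The same held across the tables for many genes of this kind. Of 6223 genes wholly inside another gene of the same strand, 5910 were at 0 in every library, against 10.5% of 6018 genes inside genes of the opposite strand alone and 13.7% of 41441 genes inside no other gene. Among protein-coding genes 26.5% of 408 nested on the same strand were at 0, against 3.73% of 21483 that were not, so that nesting did not always come with a 0. The cause of the zeros was not tested. A listed 0 is therefore no measure of the expression of a clustered protocadherin, and no level, difference or test is given for them here. Overlap touched the measured members far less, since at least 93.49% of the body of each was free of other genes of its strand, except for Cdh12 with 53.4%.

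**Figure D1:**
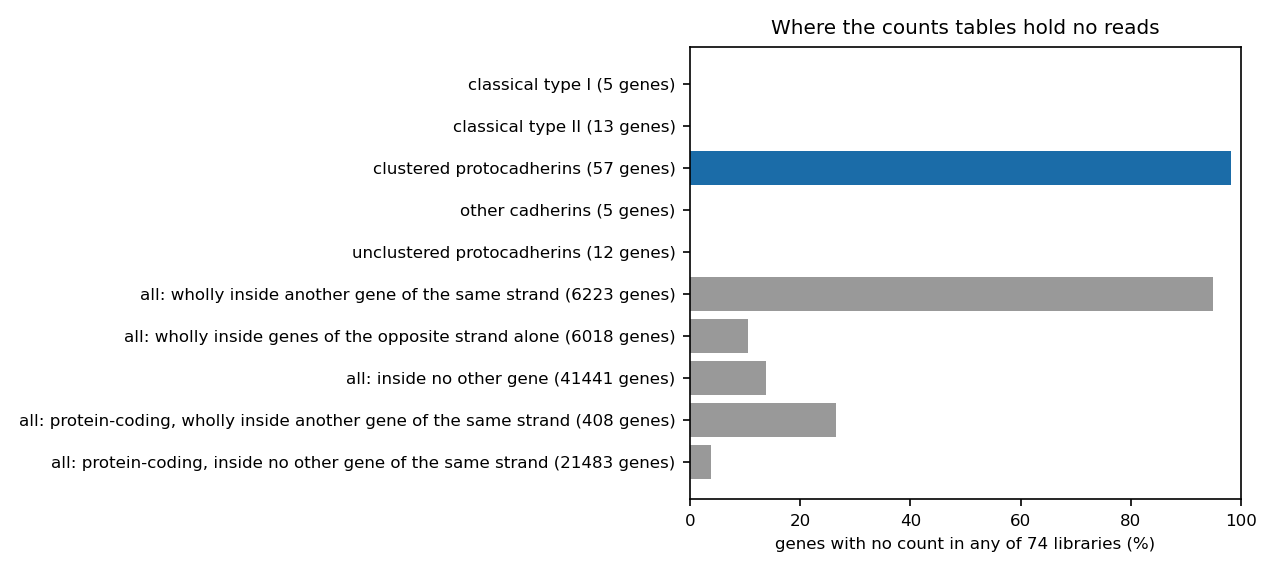
The share of genes without a count in any of the 74 libraries (x axis, percent) is drawn as a bar for each family of members and for classes of all genes, with the number of genes beside each name. The clustered protocadherins reach 98.2%, the other 4 families have no bar because none of their genes was at 0, and genes wholly inside another gene of the same strand come next.

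Levels were compared between genes as FPKM over the gene body (CPM divided by the length of the gene, introns included, in kilobases), the mean over libraries, in naive or saline nuclei. A member was taken as measurable when it passed 0.2 FPKM in at least 1 of these 8 populations, which 28 of 35 did: 2 of 5 type I, 13 of 13 type II, 2 of 5 other cadherins and 11 of 12 unclustered protocadherins. Cdh1, Cdh3 and Cdh15 (type I), Cdh16, Cdh17 and Cdh26 (other) and Pcdh12 stayed below 0.2 FPKM in all 8. Summed over their members, unclustered protocadherins reached 16.97 to 20.8 FPKM in the populations other than PU.1+, type II cadherins 9.02 to 11.5 FPKM and type I cadherins 1.56 to 3.43 FPKM. In PU.1+ nuclei the same sums were 5.77, 2.15 and 0.436 FPKM. PU.1+ nuclei held neuronal RNA, as given above, and its part in the PU.1+ levels here and below was not tested.

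**Figure D2:**
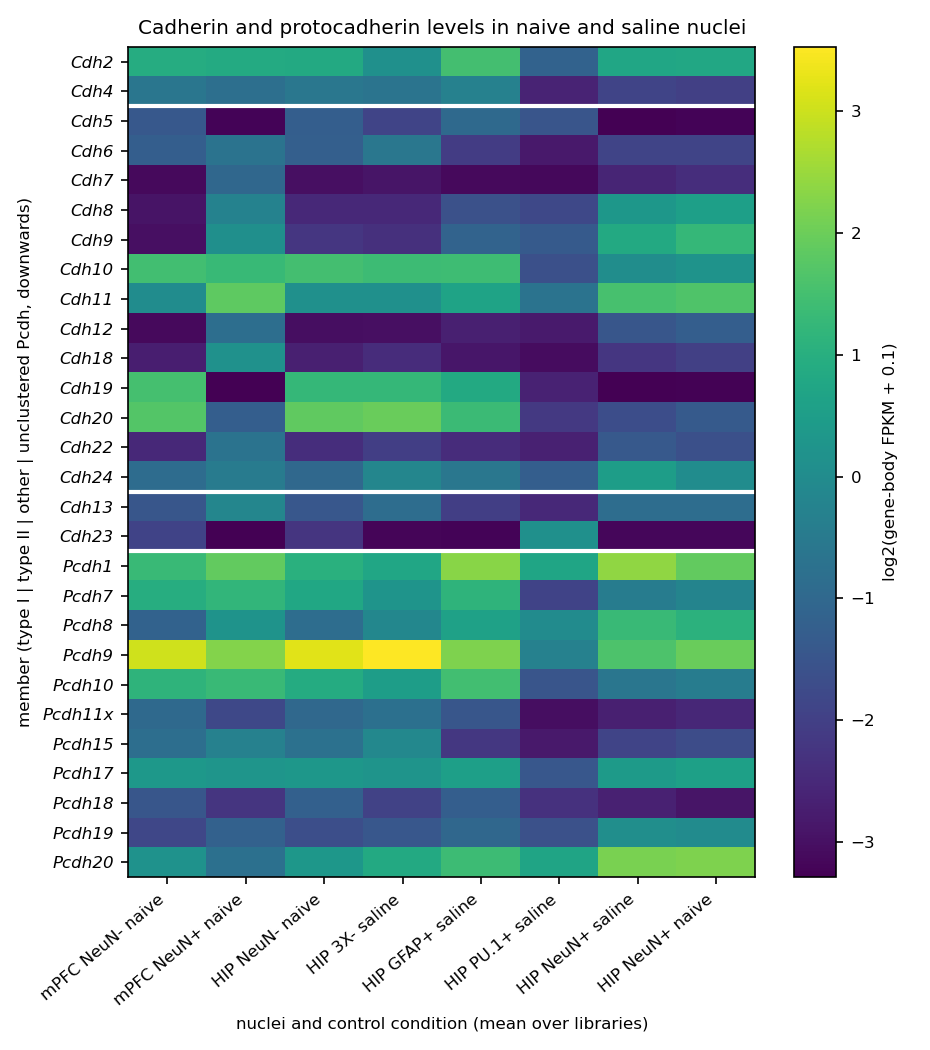
Colours give log2(gene-body FPKM + 0.1), the mean over libraries, for the 28 measurable members (rows, in 4 families divided by white lines) in 8 naive or saline populations (columns). Pcdh9 is brightest in 3X- nuclei at 11.4 FPKM, and Cdh19 and Cdh20 are bright in NeuN-, 3X- and GFAP+ columns alone. The PU.1+ column is dark except for a few genes, with Pcdh1 and Pcdh20 brightest and Cdh23 next.

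Type I classical cadherins were led by Cdh2 (N-cadherin), which links pre- and postsynaptic membranes. Cdh2 was found at 2.69 ± 0.24 FPKM in GFAP+ nuclei (SD, n = 4) and at 1.57 ± 0.035 FPKM in NeuN+ saline nuclei (SD, n = 4). Cdh4 (R-cadherin) was likewise highest in GFAP+ nuclei, at 0.716 ± 0.037 FPKM, against 0.169 ± 0.0071 FPKM in NeuN+ saline nuclei (SD, n = 4 each). In edgeR's quasi-likelihood test the GFAP+ minus NeuN+ difference was 0.43 (log2) for Cdh2 and 1.73 for Cdh4, with adjusted p = 7.45e-06 and 6.5e-23.

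Some type II classical cadherins were neuronal and some glial, whereas Cdh6 and Cdh10 did not divide in this way. Cdh10 had 2.68 ± 0.01 FPKM in mPFC NeuN- naive nuclei, against 2.38 ± 0.22 FPKM in mPFC NeuN+ naive nuclei (SD, n = 3 each). Cdh11 (OB-cadherin) was the most abundant of the neuronal ones, with 0.917 ± 0.039 FPKM in mPFC NeuN- naive nuclei, against 3.51 ± 0.22 FPKM in mPFC NeuN+ naive nuclei (SD, n = 3 each). Cdh9, which in mice acts at the mossy fibre synapse of the hippocampus, had 0.115 ± 0.052 FPKM in HIP NeuN- naive nuclei (SD, n = 3). In HIP NeuN+ naive nuclei Cdh9 had 2.28 ± 0.29 FPKM (SD, n = 4). Of the glial ones Cdh20 reached 3.79 ± 0.13 FPKM in 3X- nuclei, against 0.21 ± 0.016 FPKM in NeuN+ saline nuclei (SD, n = 4 each). Cdh19, known from glia of the peripheral nerve, had 2.75 ± 0.019 FPKM in mPFC NeuN- naive nuclei, against 0.00308 ± 0.0023 FPKM in mPFC NeuN+ naive nuclei (SD, n = 3 each). Cdh5 (VE-cadherin), the cadherin of endothelial junctions, had 0.415 ± 0.18 FPKM in GFAP+ nuclei, against 0.00222 ± 0.0027 FPKM in NeuN+ saline nuclei (SD, n = 4 each). The endothelial markers Cldn5, Flt1 and Pecam1 summed to 105 to 371 CPM in GFAP+ saline nuclei, against 1.49 to 2.05 CPM in NeuN+ saline nuclei, and their part in the Cdh5 value was not tested.

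Among the other cadherins Cdh13 (T-cadherin, which is held by a lipid anchor and has no cytoplasmic part) was highest in mPFC NeuN+ nuclei, at 0.789 ± 0.096 FPKM (SD, n = 3). Cdh23, which with Pcdh15 forms the tip links of hair cells in the ear, was found in microglial nuclei: 0.991 ± 0.11 FPKM in PU.1+, against 0.0107 ± 0.0026 FPKM in NeuN+ saline nuclei (SD, n = 4 each). Its PU.1+ minus NeuN+ difference was 6.03 on the log2 scale (edgeR, adjusted p = 5.04e-31), and its saline libraries held 386, 450, 366 and 358 CPM in PU.1+ nuclei, against 5.31, 2.92, 3.99 and 4.58 CPM in NeuN+ nuclei. Pcdh15, its partner in the ear, was highest in 3X- nuclei, at 0.821 ± 0.067 FPKM (SD, n = 4), and lowest in PU.1+ nuclei, at 0.0424 ± 0.011 FPKM (SD, n = 4).

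Pcdh9 (a delta-1 protocadherin) was the most abundant member in 4 of the 8 populations, with 11.4 ± 0.59 FPKM in 3X- nuclei, against 3.01 ± 0.043 FPKM in NeuN+ saline nuclei (SD, n = 4 each). Pcdh1, of the same subfamily, led in GFAP+, PU.1+ and NeuN+ saline nuclei and was highest in NeuN+, at 5.15 ± 0.28 FPKM (SD, n = 4). Pcdh20 led in HIP NeuN+ naive nuclei, with 4.51 ± 0.56 FPKM (SD, n = 4). The delta-2 protocadherin Pcdh10 was highest in GFAP+ nuclei, at 2.68 ± 0.13 FPKM, Pcdh8 (arcadlin, induced by activity in rat neurons) in NeuN+ saline nuclei, at 2.39 ± 0.083 FPKM, and Pcdh19, the X-linked gene of an epilepsy of girls in humans, also in NeuN+ saline nuclei, at 0.962 ± 0.066 FPKM (SD, n = 4 each). Pcdh17 lay between 1.09 and 1.41 FPKM in the 7 populations other than PU.1+.

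Most members differed between glial and neuronal nuclei, as most genes did. Levels are given as CPM or FPKM by library total, whereas differences come from edgeR with TMM factors, and the scale of the differences moves the counts. By TMM the 5 contrasts lie lower than by library totals, by 0.28 (3X-), 0.35 (GFAP+), 0.47 (HIP NeuN-), 0.49 (PU.1+) and 0.52 (mPFC NeuN-) on the log2 scale. In the mPFC 7 members were higher and 20 lower in NeuN- than in NeuN+ naive nuclei of 27 tested, where 35.4% of all tested genes were higher and 34.1% lower. In the hippocampus 12 were higher and 13 lower in NeuN- of 25 tested (37.0% and 33.8% of all genes). Against NeuN+ saline nuclei, 3X- had 12 higher and 13 lower of 26 (32.2% and 29.1%), GFAP+ had 11 and 15 (30.4% and 30.3%), and PU.1+ had 3 and 22 (34.8% and 33.3%). A gene could enter these fits through any population. In GFAP+ nuclei Cdh6, Cdh23 and Pcdh15 were called with both groups under 0.2 FPKM. The same held in PU.1+ nuclei for Cdh4, Cdh6, Cdh19, Pcdh11x and Pcdh15. Cdh23 had 0.00795 FPKM in GFAP+ and 0.0107 FPKM in NeuN+ saline nuclei (-0.81, edgeR adjusted p = 0.0183). By library totals Cdh23 lost this call (-0.46, edgeR adjusted p = 0.211). With library totals alone as the scaling, a setting chosen after the data were seen, the members higher and lower were 8 and 16 in the mPFC (54.9% and 21.0% of all genes), 12 and 12 in the hippocampus (56.0% and 20.6%), 12 and 12 in 3X- (43.0% and 21.7%), 11 and 12 in GFAP+ (44.0% and 19.5%) and 3 and 22 in PU.1+ (48.0% and 23.8%). Members higher in all 5 contrasts were Cdh5 and Cdh19. Those lower in all 5 were Cdh8, Cdh9, Cdh11, Cdh12, Cdh13, Cdh22, Cdh24, Pcdh1, Pcdh8, Pcdh17 and Pcdh19. By library totals Pcdh17 turned to 0.072 in the mPFC and 0.14 in GFAP+, and Cdh13 to 0.0091 in 3X- nuclei, none of them called, and Pcdh1 lost its call in GFAP+ nuclei (edgeR, adjusted p = 0.331, 0.0971, 1 and 0.473). Cdh2 was lower in NeuN- nuclei of the mPFC and the hippocampus by TMM (-0.48 and -0.43) and not called by library totals (0.041 and 0.035). Cdh20, Pcdh9, Pcdh11x and Pcdh18 were higher in the 4 contrasts without PU.1+. The differences ran up to 9.27 for Cdh19 (3X- minus NeuN+) and down to -5.83 for Cdh9 (mPFC NeuN- minus NeuN+) on the log2 scale. The fractions share NeuN+ saline libraries in 3 of these contrasts.

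Some members changed side between regions. Of 25 tested in both, Cdh4, Cdh6, Cdh10, Pcdh7, Pcdh10 and Pcdh15 were lower in NeuN- than in NeuN+ nuclei of the mPFC and higher in NeuN- than in NeuN+ nuclei of the hippocampus, and Pcdh20 did the opposite. For Cdh4 and Cdh10 the mPFC difference was positive by library totals (0.21 and 0.17, edgeR adjusted p = 0.112 and 0.0141), so that they changed side by TMM alone. For Pcdh10 the difference by TMM was -0.72 in the mPFC and 1.00 in the hippocampus (edgeR, adjusted p = 1.74e-10 and 2.13e-10). For Pcdh20 it was 0.58 in the mPFC and -2.43 in the hippocampus (adjusted p = 0.0194 and 8.27e-17). The NeuN- levels of Pcdh10 were near each other, at 121 CPM in the mPFC and 101 CPM in the hippocampus, whereas the NeuN+ levels were 139 CPM and 36.6 CPM. In NeuN+ naive nuclei Cdh18 had 950 CPM in the mPFC and 140 CPM in the hippocampus, Cdh7 had 62.3 and 14.3 CPM, and Pcdh20 had 3.22 and 30.0 CPM. The regions were not tested against each other.

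After fear conditioning more members were called in mPFC neurons than in the other populations, a difference that was not tested. Over the 12 treatment comparisons 28 members were tested at least once, 18 were called at least once, and 24 of the 36 calls came from mPFC NeuN+ nuclei, where the share of all genes called was also the largest of the 12. At 10 minutes 2 members rose and 9 fell of 23 tested (8.19% and 6.26% of 12987 genes rose and fell). At 30 minutes 5 rose and 8 fell (13.1% and 11.6% of all genes). Cdh22 and Pcdh1 rose at both times. Cdh7, Cdh8, Cdh9, Cdh10, Cdh20 and Pcdh10 fell at both times. By family, type II cadherins gave 1 rise and 5 falls of 11 at 10 minutes and 3 rises and 6 falls at 30 minutes, and unclustered protocadherins gave 1 rise and 3 falls of 9, then 1 rise and 2 falls. The median change of the 23 members was -0.10 at both times on the log2 scale, against 0.0063 and -0.0048 over all tested genes. The times share their naive libraries.

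The rise of Cdh22 (a type II cadherin abundant in the brain) was the largest. Cdh22 (chromosome 2, 165111507 to 165234853, minus strand) had 57.9, 66.5 and 65.9 CPM in naive nuclei, 106, 83.4 and 90.2 CPM at CFC10, and 100, 103 and 96.1 CPM at CFC30. Every CFC library lay above every naive library. The changes were 0.55 ± 0.07 and 0.67 ± 0.07 (log2, SE), with adjusted p = 1.41e-05 and 3.03e-07 in edgeR's quasi-likelihood test.

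Pcdh1 had 94.4, 92.8 and 93.9 CPM in naive nuclei, 139, 120 and 120 CPM at CFC10, and 124, 119 and 118 CPM at CFC30. The naive libraries lay close together and below all CFC libraries. The log2 changes were 0.43 ± 0.06 and 0.38 ± 0.06 (SE), with edgeR adjusted p = 1.53e-05 and 2.42e-05.

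Cdh7 (a type II cadherin of migrating neural crest in chick) fell most. Cdh7 (chromosome 1, 109982431 to 110140157, plus strand) had 69.7, 57.8 and 59.4 CPM in naive nuclei, 38.9, 39.0 and 41.6 CPM at CFC10, and 33.9, 41.4 and 43.2 CPM at CFC30. No CFC library reached the lowest naive library. The log2 changes were -0.65 ± 0.08 and -0.64 ± 0.08 (SE), with edgeR adjusted p = 5.7e-06 and 2.16e-06.

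Cdh10, another type II cadherin, had 514, 449 and 433 CPM in naive nuclei, 373, 365 and 343 CPM at CFC10, and 363, 354 and 384 CPM at CFC30. Pcdh10, which takes part in synapse elimination and binds the WAVE complex, had 138, 142 and 138 CPM in naive nuclei, 102, 119 and 118 CPM at CFC10, and 107, 101 and 103 CPM at CFC30. Cdh8, a type II cadherin of sensory and corticostriatal circuits, had 292, 277 and 283 CPM in naive nuclei, 240, 247 and 255 CPM at CFC10, and 238, 255 and 235 CPM at CFC30. In each of the 3 genes the naive libraries lay above all CFC libraries. The log2 changes at 10 and 30 minutes were -0.37 and -0.32 for Cdh10, -0.30 and -0.41 for Pcdh10, and -0.20 and -0.21 for Cdh8 (edgeR, adjusted p = 4.43e-05, 9.24e-05, 0.000638, 9.54e-06, 0.00556 and 0.00273 in that order).

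Cdh9 had 135, 130 and 109 CPM in naive nuclei, 79.9, 104 and 107 CPM at CFC10, and 90.6, 88.9 and 107 CPM at CFC30, with log2 changes of -0.36 and -0.37 (edgeR, adjusted p = 0.00633 and 0.00323). Cdh20 had 83.3, 59.0 and 75.4 CPM in naive nuclei, 58.2, 61.5 and 55.5 CPM at CFC10, and 45.3, 58.4 and 50.4 CPM at CFC30. Its naive and CFC10 libraries overlapped and its CFC30 libraries lay below the naive ones (log2 changes -0.31 and -0.47, edgeR adjusted p = 0.0229 and 0.000469). At 10 minutes alone Pcdh19 fell by 0.39, Pcdh15 by 0.16 and Cdh13 by 0.19 on the log2 scale (edgeR, adjusted p = 0.00289, 0.0106 and 0.0333). Pcdh19 had 27.1, 26.8 and 29.6 CPM at CFC10, against 39.9, 39.6 and 30.0 CPM in naive nuclei, so that its nearest libraries almost met. At 30 minutes alone Cdh4 (0.30), Cdh11 (0.16) and Cdh24 (0.40) rose, and Cdh18 (-0.13) and Pcdh8 (-0.53) fell (edgeR, adjusted p = 0.0135, 0.0322, 0.046, 0.0179 and 0.0271). CFC30 and naive libraries overlapped for Cdh4, Cdh11 and Cdh24. Calls near the threshold depended on single libraries. At 10 minutes Cdh13 was no longer called without naive replicate 1 or 2 or CFC10 replicate 2 or 3 (edgeR adjusted p up to 0.24), and Cdh20 without naive replicate 1 or 3 or CFC10 replicate 3 (up to 0.196). At 30 minutes the same held for Cdh4 without naive replicate 3 or CFC30 replicate 1 or 3 (up to 0.0973) and for Cdh11 without naive replicate 1 or 3 or CFC30 replicate 1 or 2 (up to 0.199). It also held for Pcdh8 without naive replicate 2 or CFC30 replicate 1 or 2 (up to 0.18), for Cdh18 without naive replicate 1 or CFC30 replicate 2 or 3 (up to 0.0996), and for Cdh24 without naive replicate 2 or 3 or CFC30 replicate 1 or 2 (up to 0.315). DESeq2 did not call Cdh9 at 10 minutes, nor Cdh4, Cdh11, Cdh24 and Pcdh8 at 30 minutes (adjusted p = 0.0724, 0.144, 0.054, 0.116 and 0.0978). In no member did CFC30 differ from CFC10 by edgeR's test (0 of 23, with 4 at an unadjusted p under 0.05 and 0.755% of all genes higher and 0.531% lower, or 0.631% and 0.839% by library totals).

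Markers of other cells and layers moved in the same mPFC NeuN+ libraries. The 5 oligodendrocyte genes summed to 64.2 to 85.7 CPM in naive, 120 to 155 CPM in CFC10 and 118 to 183 CPM in CFC30 nuclei, with Mbp called higher at both times. The glial cadherin Cdh20 fell, as given above. Cdh19, the other, had 0.258, 0.0830 and 0.484 CPM in naive, 0.331, 0.611 and 0.155 CPM in CFC10 and 0.413, 1.10 and 1.01 CPM in CFC30 nuclei, below the minimum for a test, with 2 CFC30 libraries the highest. Of 5 genes of upper cortical layers, Rorb fell by 0.56 and 0.52 and Calb1 by 0.54 and 0.37 at 10 and 30 minutes (log2), the sum being 524 to 552 CPM in naive, 441 to 527 CPM in CFC10 and 486 to 509 CPM in CFC30 nuclei. Of 5 genes of deep layers, Etv1 fell by 0.54 and 0.59 and Bcl11b rose by 0.33 and 0.37, the sum being 480 to 543, 491 to 537 and 498 to 534 CPM in the same order. The 3 neuronal genes summed to 5965 to 6185 CPM in naive, 5920 to 6277 CPM in CFC10 and 5759 to 5911 CPM in CFC30 nuclei. The part of these shifts in the changes of the cadherins was not tested. The layer genes were chosen after the data were seen.

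**Figure D3:**
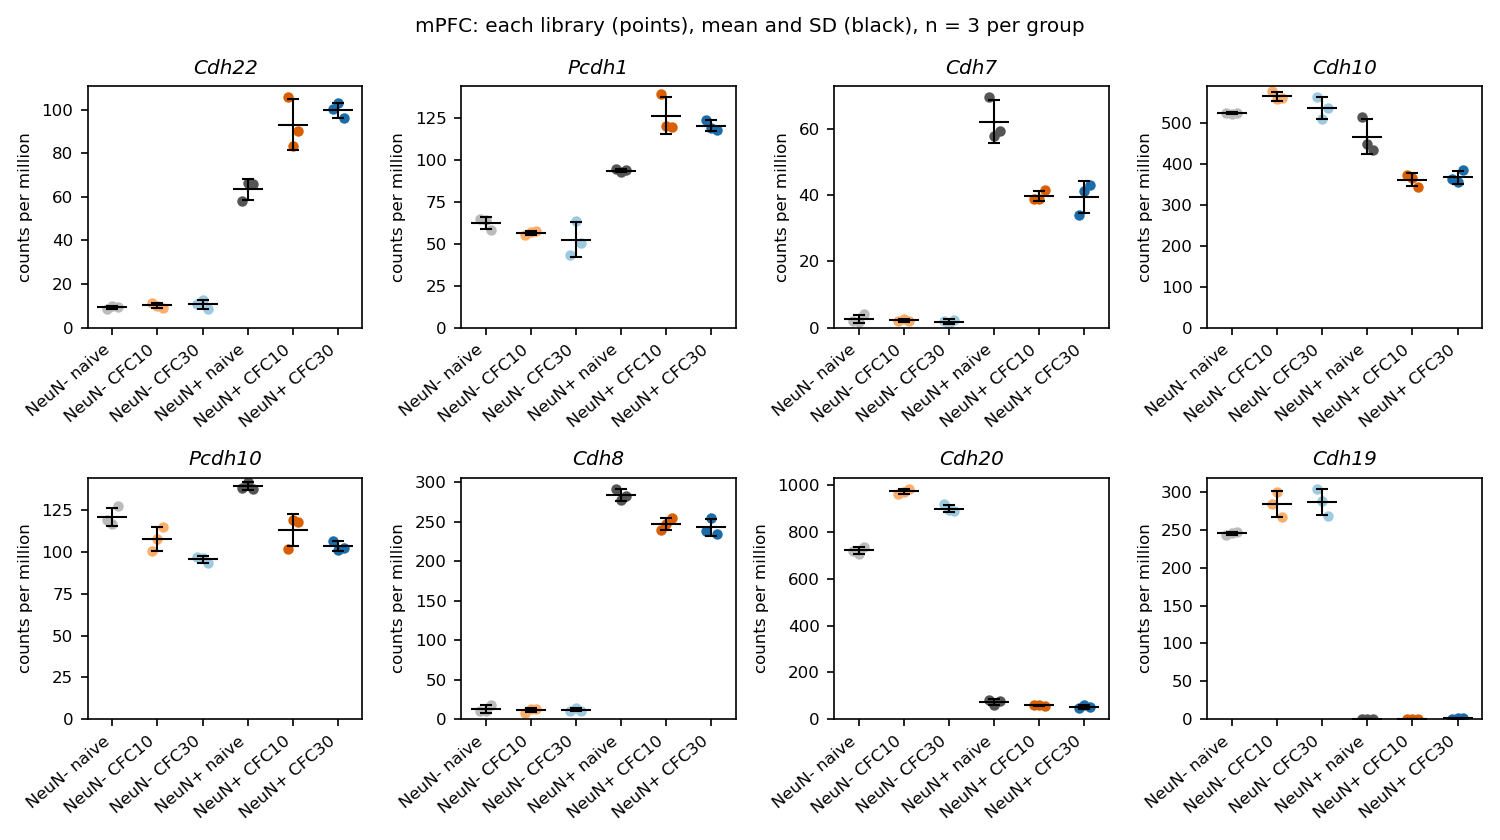
Each panel shows 1 member in the mPFC, with CPM on the y axis from 0, the 6 groups on the x axis, a point for each library and black bars for the mean and SD (n = 3). In NeuN+ nuclei Cdh22 and Pcdh1 are higher, and Cdh7, Cdh10, Pcdh10 and Cdh8 lower, in CFC10 and CFC30 than in naive libraries, while Cdh20 and Cdh19 are higher after CFC in NeuN- nuclei.

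Promoters of Pcdh10, Cdh8 and Cdh22, all called at both times in mPFC neurons, are shown so that their base composition and motifs can be compared. They were taken from RefSeq (GRCm38.p6) as windows of 250 bases before to 50 bases after the RefSeq start, and 22 member genes matched. That start can lie inside the gene body used for the counts. For Cdh10 the window begins at 18820079 and the gene body at 18818947. Pcdh1, which rose with Cdh22 at both times, was not among these, nor were Cdh4, Cdh11, Cdh13 and Cdh19. Motifs were searched on both strands as the cAMP response element TGACGTCA (found in 1.79% of 32851 promoters), its core CGTCA (20.8%, which also counts every full element), the AP-1 site TGANTCA (7.81%), the EGR site GCGGGGGCG (2.91%), the short glucocorticoid site AGAACA (19.0%) and the E-box CACGTG (7.15%). Capitals mark a match to one of these or to its reverse complement, such as TGACG for the core and TGTTCT for the glucocorticoid site. Pcdh10, which fell, lies at chr3:45378148-45378447 on the plus strand. Cdh8, which fell, lies at chr8:99416422-99416721 on the minus strand. Cdh22, which rose, lies at chr2:165234688-165234987 on the minus strand and held none of the motifs.
Pcdh10: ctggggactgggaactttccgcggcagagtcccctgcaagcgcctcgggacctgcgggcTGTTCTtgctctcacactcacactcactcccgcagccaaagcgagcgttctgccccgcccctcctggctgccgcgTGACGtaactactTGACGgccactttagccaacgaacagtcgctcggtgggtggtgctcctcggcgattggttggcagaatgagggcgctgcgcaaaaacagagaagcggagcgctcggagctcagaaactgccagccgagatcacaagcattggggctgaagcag
Cdh8: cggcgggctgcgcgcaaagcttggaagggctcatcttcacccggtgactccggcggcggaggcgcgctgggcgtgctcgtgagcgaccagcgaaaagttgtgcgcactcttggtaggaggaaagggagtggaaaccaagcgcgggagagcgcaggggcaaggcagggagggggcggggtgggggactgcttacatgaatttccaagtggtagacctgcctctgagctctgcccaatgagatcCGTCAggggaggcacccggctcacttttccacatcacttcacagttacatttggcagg
Cdh22: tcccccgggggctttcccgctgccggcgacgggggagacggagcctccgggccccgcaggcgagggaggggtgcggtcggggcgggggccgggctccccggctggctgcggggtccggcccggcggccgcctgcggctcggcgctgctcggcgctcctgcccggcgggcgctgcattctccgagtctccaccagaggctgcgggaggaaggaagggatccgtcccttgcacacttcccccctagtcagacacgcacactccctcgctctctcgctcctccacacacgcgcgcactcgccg
The share of G and C was 62.3% in both Pcdh10 and Cdh8 and 76.3% in Cdh22, against a median of 52.7% over all promoters. Pcdh10 and Cdh8 were shown because they hold a motif. The other members that fell at both times, Cdh7, Cdh9, Cdh10 and Cdh20, held none, with 37.7% G and C in Cdh10, 48.7% in Cdh9, 50.7% in Cdh20, and 49.7%, 60.7% and 62.7% in the 3 windows of Cdh7. Of the 22 member genes, the CRE core was in Cdh8, Pcdh9 and Pcdh10, the EGR site in Cdh24 and Pcdh17, the glucocorticoid site in Cdh23, Cdh24 and Pcdh10, the E-box in Cdh15, and the full cAMP response element and the AP-1 site in none. A match is a run of letters and not a bound site.

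Fewer members moved in mPFC NeuN- nuclei. At 10 minutes Cdh20 alone rose and none fell of 20 tested (0.740% of 14866 genes rose and 0.969% fell). At 30 minutes Cdh20 and Cdh19 rose and Pcdh10 fell (2.68% and 3.18% of all genes, or 2.22% and 4.08% by library totals). Cdh20 had 721, 708 and 738 CPM in naive nuclei, 963, 974 and 987 CPM at CFC10, and 921, 893 and 890 CPM at CFC30. No CFC library overlapped the naive ones, and the log2 changes were 0.44 ± 0.05 and 0.35 ± 0.05 (SE), with edgeR adjusted p = 0.00159 and 0.000886. Cdh19 had 244, 246 and 247 CPM in naive nuclei, 284, 301 and 266 CPM at CFC10, and 303, 288 and 269 CPM at CFC30, all CFC libraries above all naive ones. Its changes were 0.21 and 0.25 (edgeR, adjusted p = 0.103 and 0.0272), and the call at 30 minutes was lost without 1 of 4 libraries, CFC30 replicate 1 or any naive replicate (adjusted p up to 0.12).

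Pcdh10 in mPFC NeuN- nuclei had 119, 117 and 127 CPM in naive, 101, 108 and 115 CPM in CFC10 and 96.9, 96.5 and 93.2 CPM in CFC30 nuclei. All 3 CFC30 libraries lay below the naive ones, with a log2 change of -0.31 (edgeR, adjusted p = 0.0111). The nearest falls at 10 minutes were Cdh4 at -0.32 and Cdh13 at -0.19 (adjusted p = 0.16 and 0.213), and at 30 minutes Pcdh1 had -0.23 (adjusted p = 0.238). No member differed between CFC30 and CFC10 (0 of 20 by edgeR, with 2 at an unadjusted p under 0.05, where 0.552% of all genes were higher and 0.148% lower). The 5 oligodendrocyte genes summed to 4264 to 4588 CPM in naive, 5086 to 5355 CPM in CFC10 and 4903 to 5317 CPM in CFC30 NeuN- nuclei, with Mobp and Mal called higher at both times, and the 5 microglial genes to 815 to 838, 632 to 738 and 645 to 779 CPM. Genes of oligodendrocyte precursors summed to 595 to 648, 481 to 577 and 525 to 552 CPM in the same order. Cdh19 and Cdh20 are highest in the fractions that hold oligodendrocytes, and the part of these shifts in their rise was not tested.

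The response of 3 members differed between NeuN- and NeuN+ nuclei of the mPFC by the test of the difference itself. Of 27 tested, Cdh10 and Cdh20 were higher and Pcdh1 lower in NeuN- minus NeuN+ at both times (0.640% of all genes higher and 1.24% lower at 10 minutes, 1.61% and 2.57% at 30 minutes). For Cdh20 the difference of the changes was 0.76 and 0.82 (log2, edgeR adjusted p = 0.00163 and 0.000283), since it rose in NeuN- and fell in NeuN+ nuclei. For Cdh10 it was 0.50 and 0.38 (adjusted p = 0.00283 and 0.0113), with 578, 557 and 559 CPM at CFC10 in NeuN- nuclei, against 524, 521 and 525 CPM in naive NeuN- nuclei, a change that was not itself called. For Pcdh1 it was -0.56 and -0.62 (adjusted p = 0.0155 and 0.00349), with 55.3, 56.8 and 57.7 CPM at CFC10 in NeuN- nuclei, against 65.0, 64.3 and 58.4 CPM in naive NeuN- nuclei, which was not called in NeuN- nuclei alone.

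In hippocampal neurons a few members rose and none fell by the test. At 10 minutes Pcdh1 alone was called of 19 members (2.72% of 12429 genes rose and 2.14% fell, or 4.10% and 1.30% by library totals), and at 30 minutes Pcdh1, Pcdh19 and Cdh22 (4.67% and 3.89%). Pcdh1 had 88.3, 93.4, 99.0 and 98.1 CPM in naive nuclei, 115, 113, 118 and 123 CPM at CFC10, and 107, 107, 112 and 101 CPM at CFC30. All CFC libraries lay above all naive libraries, and the log2 changes were 0.27 ± 0.05 and 0.16 ± 0.05 (SE), with edgeR adjusted p = 0.00188 and 0.0345. Pcdh19 had 96.3, 102, 91.0 and 92.0 CPM in naive nuclei, 108, 102, 103 and 108 CPM at CFC10, and 114, 107, 112 and 118 CPM at CFC30, with a change of 0.23 at 30 minutes (adjusted p = 0.00399). In mPFC neurons Pcdh19 fell at 10 minutes, and the regions were not tested against each other.

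Cdh22 in HIP NeuN+ nuclei had 23.8, 27.8, 30.3 and 27.9 CPM in naive nuclei, 35.6, 31.1, 30.6 and 36.0 CPM at CFC10, and 30.4, 30.9, 38.1 and 34.4 CPM at CFC30. Its changes were 0.25 and 0.27, of which the second was called (edgeR, adjusted p = 0.0699 and 0.0339). The calls of Pcdh1 and Cdh22 at 30 minutes were lost without 1 of several libraries (Pcdh1 without naive replicate 1, 2 or 4 or CFC30 replicate 2 or 3, Cdh22 without naive replicate 1, 2 or 4 or CFC30 replicate 3 or 4), with adjusted p up to 0.108 and 0.128. The nearest falls were Cdh10 at -0.34 and Pcdh10 at -0.25 at 10 minutes (adjusted p = 0.0536 and 0.0605), and Pcdh10 at -0.18 and Cdh12 at -0.10 at 30 minutes (adjusted p = 0.145 and 0.166). No member differed between CFC30 and CFC10 (0 of 19 by edgeR, with 3 at an unadjusted p under 0.05, where 0.137% of all genes were higher and 0.161% lower).

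In HIP NeuN- nuclei no member was called at either time. At 10 minutes 0 of 21 passed by edgeR, with 1 at an unadjusted p under 0.05 (0.122% of 14802 genes rose and 0.223% fell, or 0.108% and 0.0743% by library totals), and DESeq2 called 0. The smallest adjusted p values were those of Pcdh19 at -0.30 and Pcdh17 at -0.17 (edgeR, 0.305 and 0.358), and Cdh20 at 0.10 and Pcdh1 at 0.11 (0.416 and 0.704). At 30 minutes 0 of 21 passed, with 1 at an unadjusted p under 0.05 (1.20% and 1.18% of all genes), and DESeq2 called 0. Pcdh10 came nearest at -0.34 (adjusted p = 0.0902), with 75.0, 75.4, 77.9 and 92.3 CPM at CFC30, against 102, 93.9 and 108 CPM in naive nuclei, and all CFC30 libraries lay below the naive ones. Pcdh7 followed at -0.15, and Cdh20 and Cdh24 at 0.10 and 0.23 (adjusted p = 0.397, 0.384 and 0.553). The response of no member differed between NeuN- and NeuN+ nuclei of the hippocampus (0 of 25 by edgeR at both times, with 3 and 1 at an unadjusted p under 0.05). Of all genes 0.00623% were higher and 0.0249% lower at 10 minutes (0.0125% and 0.0187% by library totals), and 0.137% and 0.156% at 30 minutes. Between CFC30 and CFC10 0 of 21 members differed in HIP NeuN- nuclei, with 2 at an unadjusted p under 0.05 (0.101% and 0.0676% of all genes, or 0.0743% and 0.155% by library totals).

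**Figure D4:**
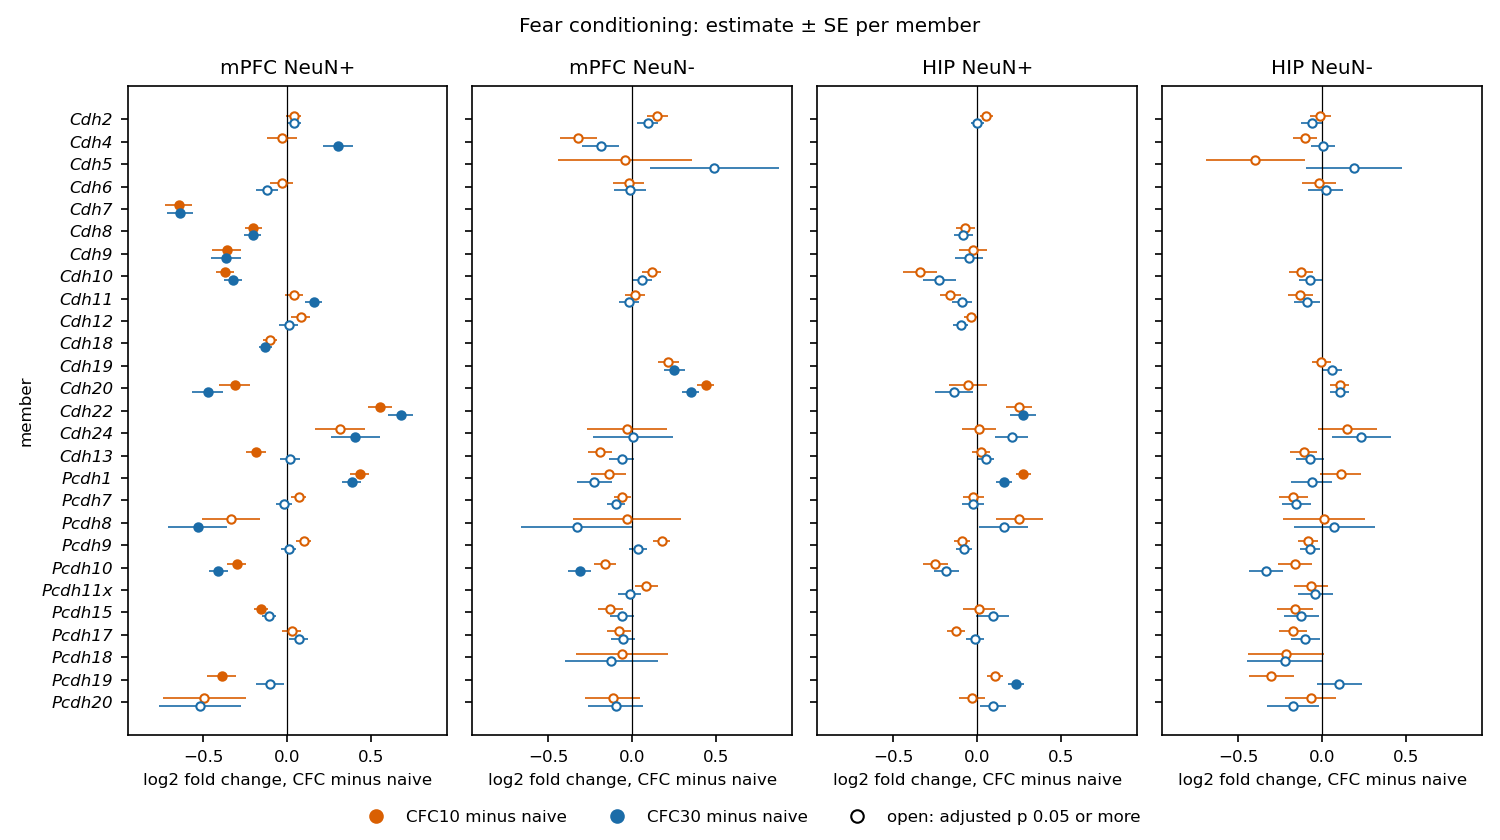
Points give the log2 fold change of each member, CFC minus naive, and lines its SE, in 4 panels for mPFC and HIP nuclei, with CFC10 in orange and CFC30 in blue. Filled points have an adjusted p under 0.05 and a gap means that the member was not tested. Filled points are most frequent in mPFC NeuN+ nuclei, where Cdh22 and Cdh7 lie farthest from 0, and are absent from HIP NeuN- nuclei.

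After corticosterone few members were called. The shares of all genes called ran from 0.798% (falls in NeuN+) to 5.00% (rises in 3X-), as given for each fraction. Whether members were called less or more often than other genes was not tested. In NeuN+ nuclei Cdh4 rose and Pcdh1 fell of 19 tested (1.26% of 12664 genes rose and 0.798% fell, or 0.979% and 1.06% by library totals). Pcdh1 had 112, 103, 108 and 110 CPM after corticosterone, against 141, 133, 125 and 140 CPM after saline. All corticosterone libraries lay below all saline libraries, with a log2 change of -0.29 ± 0.05 (SE, edgeR adjusted p = 1.88e-05), whereas it rose after fear conditioning in NeuN+ nuclei, a difference between experiments that was not tested. The HIP NeuN+ naive libraries of the first experiment, at 88.3 to 99.0 CPM of Pcdh1, lay below both the corticosterone and the saline libraries. That comparison across experiments was not tested either. Cdh4 had 94.1, 88.6, 78.2 and 105 CPM after corticosterone, against 80.6, 79.5, 74.1 and 75.0 CPM after saline, so that 1 corticosterone library lay within the saline range (0.27 ± 0.06, edgeR adjusted p = 0.00257). Cdh4 passed the 0.2 FPKM filter of this test through the corticosterone group alone (0.2004 FPKM, against 0.169 FPKM after saline). Without corticosterone replicate 1 or 4 it fell under the filter and was not tested. Next came Cdh11 at -0.11 and Pcdh17 at 0.10 (adjusted p = 0.197 and 0.43), and by library totals Cdh11 was called lower at -0.13 (edgeR, adjusted p = 0.0443).

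In 3X- nuclei Cdh22 and Pcdh11x rose and none fell of 21 tested (5.00% of 14587 genes rose and 2.47% fell, or 4.13% and 3.76% by library totals). Cdh22 had 25.3, 29.8, 20.7 and 23.6 CPM after corticosterone, against 16.6, 15.3, 19.4 and 20.5 CPM after saline, and the nearest libraries of the groups almost met (0.49 ± 0.11, edgeR adjusted p = 0.00286). Cdh22 passed the 0.2 FPKM filter of this test through the corticosterone group alone. Without corticosterone replicate 2 it fell under the filter and was not tested. Pcdh11x, an X-linked delta-1 protocadherin, had 373, 379, 343 and 357 CPM after corticosterone, against 276, 313, 327 and 295 CPM after saline, with no overlap (0.30 ± 0.07, adjusted p = 0.00471). The nearest falls were Cdh10 at -0.16 and Cdh11 at -0.11 (adjusted p = 0.191 and 0.499), and by library totals Cdh10 was called lower at -0.20 (edgeR, adjusted p = 0.0459). Corticosterone replicates 2 and 4 stood apart from the other 3X- libraries: genes under the 0.2 FPKM minimum took 0.949%, 1.52%, 0.818% and 1.66% of their counts after corticosterone, against 0.670%, 0.718%, 0.774% and 0.882% after saline. The barely expressed Cdh1 had 1.01, 3.11, 0.470 and 2.89 CPM after corticosterone, against 0.465, 0.135, 0.333 and 0.331 CPM after saline, highest in the same libraries, as were Cdh3 and Cdh17. The part of these libraries' low counts in the changes of the members was not tested. Genes of oligodendrocyte precursors summed to 1133 to 1381 CPM after corticosterone, against 926 to 1119 CPM after saline, with all 3 called higher. The 5 microglial genes summed to 21.2 to 34.7 CPM after corticosterone, against 11.8 to 22.7 CPM after saline, and the part of these shifts in the changes of the members was not tested.

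In GFAP+ nuclei 0 of 20 members passed, with 4 at an unadjusted p under 0.05 (2.03% of 14527 genes rose and 0.895% fell, or 1.76% and 1.53% by library totals), and DESeq2 called 0. Pcdh1 again lay lower, at 84.6, 110, 107 and 117 CPM after corticosterone, against 126, 121, 123 and 140 CPM after saline (-0.24, edgeR adjusted p = 0.224). Pcdh10 had -0.16, Cdh8 0.24 and Cdh19 0.18 (adjusted p = 0.333, 0.428 and 0.475). In PU.1+ nuclei 0 of 14 passed by edgeR, with 0 at an unadjusted p under 0.05 (4.42% of 14279 genes rose and 3.39% fell, or 3.89% and 4.79% by library totals), and DESeq2 called 0. Cdh23, the microglial member, had 438, 402, 395 and 424 CPM after corticosterone, against 386, 450, 366 and 358 CPM after saline, and the groups overlapped (0.12, adjusted p = 0.4). Pcdh1 had 0.24, Cdh11 -0.13 and Cdh9 -0.03 (adjusted p = 0.309, 0.605 and 0.952). The 4 genes used as a check of the hormone response, Fkbp5, Sgk1, Tsc22d3 and Per1, summed to 1611 to 2476 CPM after corticosterone, against 357 to 546 CPM after saline, in the same PU.1+ nuclei.

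Of 26 members tested for a difference between fractions, Pcdh1 differed between PU.1+ and NeuN+ nuclei in its response to corticosterone, by 0.52 on the log2 scale (edgeR, adjusted p = 0.0178, with 1.07% of 18535 genes higher and 0.464% lower), with 41.9, 52.4, 49.4 and 43.2 CPM after corticosterone, against 29.9, 37.6, 48.6 and 44.7 CPM after saline, in PU.1+ nuclei. Cdh23 differed between 3X- and NeuN+ nuclei, by 1.83 (adjusted p = 0.00342, with 1.45% and 0.550%). In 3X- nuclei Cdh23 had 7.92, 15.3, 5.64 and 16.1 CPM after corticosterone, against 3.14, 3.52, 2.99 and 4.63 CPM after saline, and the groups did not overlap. The highest were again corticosterone replicates 2 and 4, and without both the difference was 1.11 and not called (edgeR, adjusted p = 0.131), a setting chosen after the data were seen, while without either alone it was 1.62 (replicate 2) and 1.60 (replicate 4) and called. In NeuN+ nuclei it had 3.44, 3.30, 4.14 and 3.27 CPM after corticosterone, against 5.31, 2.92, 3.99 and 4.58 CPM after saline. Cdh23 averaged 0.0286 FPKM in 3X- and 0.00898 FPKM in NeuN+ nuclei after corticosterone, against 0.00907 FPKM in 3X- and 0.0107 FPKM in NeuN+ nuclei after saline, all under the 0.2 FPKM minimum, so that it entered this test through PU.1+ nuclei alone and was not tested within 3X- or NeuN+ nuclei. The microglial sum in 3X- nuclei given above moved in the same direction, with its part not tested. No member differed between GFAP+ and NeuN+ nuclei (0 of 26 by edgeR, with 3 at an unadjusted p under 0.05, 0.432% and 0.0809% of all genes).

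**Figure D5:**
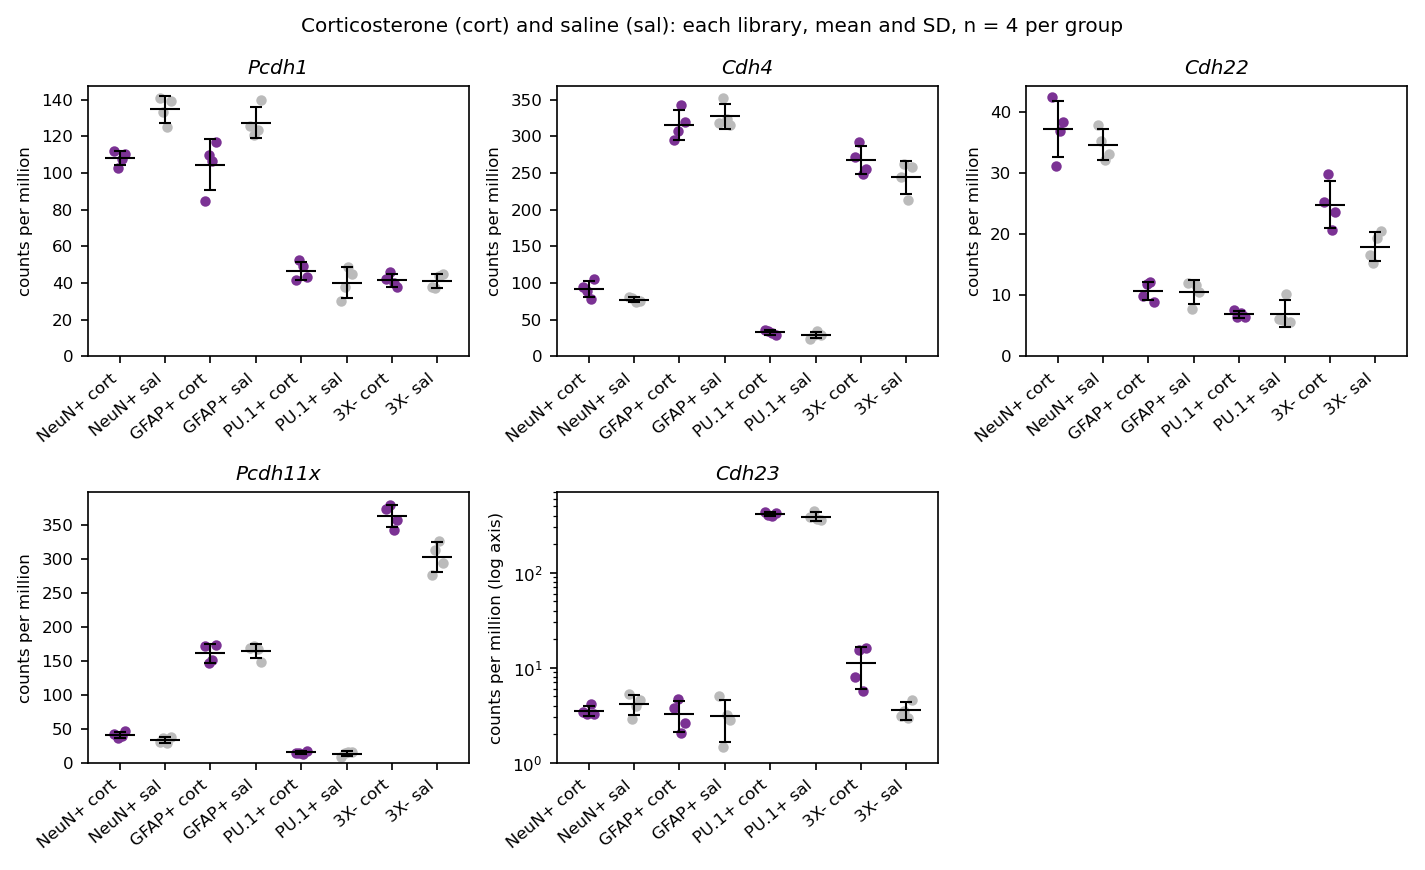
Each panel shows 1 member in the 4 hippocampal fractions, with corticosterone left of saline, CPM on the y axis (a log axis for Cdh23), a point for each library and black bars for the mean and SD (n = 4). Pcdh1 is lower after corticosterone in NeuN+ nuclei, Cdh22 and Pcdh11x are higher in 3X- nuclei, and Cdh23 lies at 358 to 450 CPM in PU.1+ nuclei under both treatments.

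Pcdh1 was also the only member at a peak of γH2AX, the phosphorylated histone that marks DNA double-strand breaks. The deposited peaks join those of naive and CFC30 tissue, each made from pools of 3 animals, and carry no score, and conditions were not compared here. Pcdh1 (GRCm38, chromosome 18, 38185914 to 38212053, minus strand) was covered over its whole 26.14 kb by a peak from 38174182 to 38212215 in the hippocampus and by one from 38175697 to 38212295 in the mPFC. The hippocampus had 282 peaks and the mPFC 260, and 1.97% and 1.88% of protein-coding genes lay at one. Within 10000 bases of a gene the count of members stayed at 1, while 2.71% and 2.56% of protein-coding genes lay at a peak.

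Several abundant members passed the test in no treatment comparison. Cdh2 had changes between -0.06 and 0.16 on the log2 scale over 12 comparisons, Pcdh17 between -0.17 and 0.22 and Pcdh9 between -0.09 and 0.17 (edgeR). The smallest adjusted p was 0.266 for Cdh2 (mPFC NeuN- CFC10), 0.0673 for Pcdh17 (3X- corticosterone) and 0.115 for Pcdh9 (mPFC NeuN- CFC10). Pcdh8 and Cdh11 were called in mPFC NeuN+ nuclei at 30 minutes, as given above, and in no other of the 12. Pcdh8, a gene of 4.538 kb, had 9.19 CPM in HIP NeuN+ naive nuclei on average, with changes of 0.25 at CFC10 and 0.16 at CFC30 there (adjusted p = 0.334 and 0.558) and an SE of 0.14 at both times. Cdh11 had -0.16 in HIP NeuN+ CFC10 nuclei and -0.11 in NeuN+ nuclei after corticosterone (adjusted p = 0.136 and 0.197).

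Genes that work with cadherins were counted by the same test over the 12 treatment comparisons, in which 3.73% of 166225 tests over all genes were rises and 2.99% falls. Of 9 WAVE complex genes, 9 calls were rises and 1 a fall among 108 tests (8.33% and 0.926%), and no test of the list was made. Brk1, its smallest subunit, rose in HIP and mPFC NeuN+ nuclei at both times (0.25, 0.29, 0.27 and 0.48 on the log2 scale, edgeR adjusted p = 0.0397, 0.0123, 0.0338 and 0.000134) and in HIP NeuN- nuclei at 30 minutes (0.36, adjusted p = 0.0279), and Wasf2 rose in PU.1+ and GFAP+ nuclei after corticosterone (0.77 and 0.28). Cyfip1 fell in mPFC NeuN- nuclei at 30 minutes (-0.34). Of 10 catenins and adapters, 5 calls were rises and 3 falls among 105 tests (4.76% and 2.86%). Ctnnd1 (p120 catenin, which keeps classical cadherins at the membrane) rose at 30 minutes in HIP and mPFC NeuN+ nuclei (0.20 and 0.29, adjusted p = 0.0223 and 0.000451) and after corticosterone in PU.1+ nuclei (0.20, adjusted p = 0.0459). Jup (plakoglobin) rose in mPFC NeuN+ nuclei at 30 minutes (0.54) and fell in mPFC NeuN- nuclei at 30 minutes (-0.30) and after corticosterone in 3X- and PU.1+ nuclei (-0.44 and -0.39).

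Of 26 further genes of the cadherin superfamily, 6 calls were rises and 1 a fall among 105 tests (5.71% and 0.952%). Clstn3, a synaptic calsyntenin, rose in mPFC NeuN+ nuclei at both times (0.27 and 0.49) and in HIP NeuN+ nuclei at 30 minutes (0.23), and Clstn2 rose in mPFC NeuN+ nuclei at both times (0.20 and 0.14). Fat4 fell in mPFC NeuN+ nuclei at 10 minutes (-0.31). Celsr2 rose after corticosterone in 3X- nuclei (0.31). Of 6 protease genes, 2 calls were rises and 1 a fall among 72 tests (2.78% and 1.39%), all of them of Adam10. Adam10, which sheds the outer part of Cdh2 and of gamma protocadherins, rose after corticosterone in PU.1+ nuclei (0.25) and at 30 minutes in mPFC NeuN- nuclei (0.22), and fell after corticosterone in 3X- nuclei (-0.29). Of 12 regulators of the clustered genes, 2 calls were rises and 0 were falls among 134 tests (1.49% and 0%). Smc3 rose in HIP NeuN+ nuclei (0.20) and Nipbl in mPFC NeuN+ nuclei (0.14) at 30 minutes, both parts of the cohesin machinery. Ctcf was not called in any treatment comparison.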

How the data were processed

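Counts per gene were deposited by the authors, who trimmed 3 nucleotides from the reads, mapped them to GRCm38 (HISAT2), discarded duplicates (Picard) and summed reads over gene bodies, introns included (featureCounts) (versions and strand setting not given in the sources used here). γH2AX peaks were deposited as positions. Symbols came from GENCODE vM21 by Ensembl ID. The members and lists were chosen with earlier results of these data known, and the cortical layer lists after these data were seen.

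CPM is the count scaled by the library's total. edgeR 4.0.16 (R 4.3.3) with TMM factors and its quasi-likelihood test was fitted per region and sorted population on genes with a mean above 0.2 FPKM in at least 1 group. Interactions and cell-type contrasts were fitted on all populations of an experiment. Benjamini-Hochberg adjustment ran over all tested genes, with calls at an adjusted p under 0.05. The script was tested on simulated data, where 51.4% of genes changed 1.25-fold were recovered at 10 minutes in HIP NeuN+ nuclei and 44.6% in mPFC NeuN+ nuclei, while 5.65% and 9.75% of the calls were genes simulated without a change. DESeq2 1.42.0, RLE factors, no filter, fits of 2 groups, a replicate block and leaving out each library were alternatives. Scaling by library totals alone, a block shared by the fractions and the omission of 2 3X- libraries were added after the data were seen.

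Named were the called members (up to 10 per direction), the nearest 2 where fewer than 2 were called, the 3 most abundant of each family, members at a peak, and Pcdh8, Pcdh10, Pcdh17, Pcdh19, Cdh2, Cdh8, Cdh11 and Cdh13.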

Additional observations from a re-analysis of the deposited data

Results flagged for a closer look

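In the mPFC the response to fear conditioning of 3 members differed between NeuN- and NeuN+ nuclei by an interaction test (edgeR, Benjamini-Hochberg adjusted p). At CFC10 the NeuN- minus NeuN+ difference of the log2 changes was 0.76 ± 0.12 (SE) for Cdh20 (adjusted p = 0.00163), 0.50 ± 0.09 for Cdh10 (adjusted p = 0.00283) and -0.56 ± 0.12 for Pcdh1 (adjusted p = 0.0155). At CFC30 it was 0.82 ± 0.12 for Cdh20 (adjusted p = 0.000283), 0.38 ± 0.09 for Cdh10 (adjusted p = 0.0113) and -0.62 ± 0.12 for Pcdh1 (adjusted p = 0.00349). Both times share the naive libraries.

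The response to corticosterone differed between fractions for 2 members. The 3X- minus NeuN+ difference was 1.83 ± 0.39 for Cdh23 (adjusted p = 0.00342), a gene under the 0.2 FPKM minimum in all 4 groups of that difference, and it was 1.11 (adjusted p = 0.131) without corticosterone replicates 2 and 4 of 3X- nuclei. The PU.1+ minus NeuN+ difference was 0.52 ± 0.13 for Pcdh1 (adjusted p = 0.0178). Both were measured against the same NeuN+ libraries.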

How the results depend on the processing

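Of the single calls recomputed under the alternatives, 929 values kept direction and call, 52 kept direction but not the call, and 7 reversed, all between cell types with library totals alone as the scaling (chosen after the data were seen): Cdh2 (0.041), Cdh4 (0.21), Cdh10 (0.17) and Pcdh17 (0.072) in mPFC NeuN- minus NeuN+, Cdh2 in HIP (0.035), Pcdh17 in GFAP+ (0.14) and Cdh13 in 3X- (0.0091) against NeuN+ nuclei. That scaling also called 2 members in HIP NeuN+ CFC10, and no member call of the 3X- minus NeuN+ interaction was left (0) without 3X- corticosterone replicates 2 and 4. The values that kept direction and call include those between cell types, while nearly all that kept direction alone were of treatment comparisons. A setting in which a called gene fell under the filter gave no value, as for Cdh4 in NeuN+ and Cdh22 in 3X- nuclei after corticosterone. The number of called members moved by over 1.5 times in the following settings, and the cause was not tested. Without the filter on low genes it was 5 in HIP NeuN+ CFC10 (1 as reported), 6 in HIP NeuN+ CFC30 (3), 2 and 3 in HIP NeuN- CFC10 and CFC30 (0 each), 3 in mPFC NeuN- CFC10 (1) and 1 in GFAP+ corticosterone (0). DESeq2 gave 2 in mPFC NeuN- CFC10 (1) and 4 in 3X- corticosterone (2). Fitting only the groups compared gave 5 in HIP NeuN+ CFC10, and keeping the identical libraries apart gave 1 in HIP NeuN- CFC30. Between treatments, libraries of the same replicate number correlated at -0.14 to 0.23 in their deviations from the group means (8 of 56 pairs over 0.1). Between fractions of a treatment 0 of 11 pairs were over 0.1 in HIP and 0 of 9 in mPFC. After corticosterone or saline it was 5 of 48, the highest 0.13. Such correlations cannot exclude that fractions of the same replicate number came from the same animals. The tests as reported had no term for shared animals. A block shared by the fractions lost no member call, added 1 to the mPFC CFC30 interaction (4 against 3) and left 1 and 22 of all genes called in the HIP CFC10 and CFC30 interactions (5 and 47 as reported). With the replicate block the count was 3 in HIP NeuN+ CFC10, 1 and 2 in HIP NeuN- CFC10 and CFC30, and 1 in mPFC NeuN+ CFC30 minus CFC10 (0). Leaving out 1 library gave 1 to 2 in HIP NeuN+ CFC10, 1 to 4 in HIP NeuN+ CFC30, 0 to 1 in HIP NeuN- CFC30, 10 to 12 in mPFC NeuN+ CFC10 (11), 9 to 12 in mPFC NeuN+ CFC30 (13), 2 to 4 in mPFC NeuN- CFC30 (3), 1 to 2 in NeuN+ corticosterone (2) and 2 to 3 in 3X- corticosterone. In mPFC NeuN+ nuclei Cdh18 lost its CFC30 call without the filter (adjusted p = 0.0674), Cdh13 its CFC10 call and Cdh24 its CFC30 call with only the 2 groups compared (0.0516 and 0.0547), and Cdh24 its CFC30 call by library totals (0.0576). Without the filter Pcdh11x lost its call in 3X- nuclei (adjusted p = 0.105), and with RLE factors Pcdh17 did between GFAP+ and NeuN+ nuclei (0.0864).

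Over all genes the calls without the filter were 1032 in HIP NeuN+ CFC10 (604 as reported), 514 and 917 in HIP NeuN- CFC10 and CFC30 (51 and 352), 751 and 1486 in mPFC NeuN- CFC10 and CFC30 (254 and 870), 711 in GFAP+ (425) and 2782 in 3X- corticosterone (1091). DESeq2 gave 171 in HIP NeuN- CFC10 and 164 in NeuN+ corticosterone (261). In HIP NeuN- nuclei the count at CFC10 was 3 to 16 with 1 library left out, 180 with the replicate block, 92 with only the groups compared and 468 with the identical libraries apart, and at CFC30 600 with the block and 930 with those libraries apart. The block gave 396 in NeuN+ corticosterone and 3 for the HIP CFC10 interaction (5).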
